A study of Homo sapiens with 6 samples.

Results

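NRF2 (gene NFE2L2), its inhibitor KEAP1, its dimer partner MAFG and 6 antioxidant target genes (NQO1, HMOX1, SRXN1, TXNRD1, TXN and OSGIN1) were examined in RNA-seq libraries of DU145, an established human prostate cancer cell line. The 9 genes were taken by symbol from a table of 19727 genes, and all 9 had a mean of at least 1 FPKM (fragments scaled to transcript length and library depth), the level required for testing. The study compared DU145 cells stably carrying a lentivirus that overexpresses circCSPP1, a circular RNA made from exons of CSPP1, with cells carrying the control lentivirus, to ask how circCSPP1 changes gene expression. The groups are named lentivirus-NC (3 libraries, genotype given as normal) and lentivirus-circCSPP1 (3 libraries), and both lines went through lentiviral infection and puromycin selection. No source used here says that the libraries of a group came from separate cultures or separate infections, so the p-values measure the spread between these libraries only, and the effect of circCSPP1 and a difference between the 2 stable lines cannot be told apart.

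NRF2 is a transcription factor that is made continuously and, in unstressed cells, is bound by KEAP1, an adaptor that presents it to a CUL3 ubiquitin ligase for degradation. When reactive cysteines of KEAP1 are modified by oxidants or electrophiles, NRF2 escapes degradation, pairs with a small MAF protein such as MAFG and binds antioxidant response elements (ARE) near genes that detoxify quinones, break down haem and reduce peroxides and protein disulphides. This control acts mainly on the NRF2 protein, which RNA-seq does not measure.

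RefSeq promoter windows, from 250 bases before to 50 bases after each annotated start (GRCh38.p14), were found for 8 of the 9 genes, which had 11 such windows. They were searched on both strands for the ARE core TGACNNNGC and for the AP-1 motif TGANTCA, which resembles it. The core lay in 3 of the 11 windows (1 of KEAP1 and both of TXNRD1). It lay in 13.3% of 35116 promoter windows of all genes and in 14.5% of 14234 windows of tested genes. The AP-1 motif lay in 1 of the 11, that of OSGIN1, and no match of the core overlapped it. The shares for AP-1 were 7.71% of all windows and 5.12% of those of tested genes. Sequence outside the windows was not searched, so a window without a match does not show that the gene lacks such an element. These 4 windows are shown from base -150 to base +10 of the start because they hold the only matches among the 11, read 5′ to 3′ on the strand of the gene, with the matches in capitals. A match on the opposite strand appears as its reverse complement.
KEAP1, chr19:10502762-10502921, minus strand: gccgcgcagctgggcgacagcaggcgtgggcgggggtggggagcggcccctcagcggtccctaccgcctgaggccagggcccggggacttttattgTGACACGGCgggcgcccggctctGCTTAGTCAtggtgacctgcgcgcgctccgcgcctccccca
TXNRD1, chr12:104215629-104215788, plus strand: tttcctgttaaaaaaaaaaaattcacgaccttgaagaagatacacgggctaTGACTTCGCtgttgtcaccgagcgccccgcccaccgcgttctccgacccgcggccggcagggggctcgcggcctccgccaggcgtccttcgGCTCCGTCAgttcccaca
TXNRD1, second window, chr12:104286882-104287041, plus strand: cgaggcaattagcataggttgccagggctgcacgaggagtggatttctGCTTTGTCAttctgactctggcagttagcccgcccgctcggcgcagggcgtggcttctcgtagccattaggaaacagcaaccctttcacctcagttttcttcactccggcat
OSGIN1, chr16:83953090-83953249, plus strand: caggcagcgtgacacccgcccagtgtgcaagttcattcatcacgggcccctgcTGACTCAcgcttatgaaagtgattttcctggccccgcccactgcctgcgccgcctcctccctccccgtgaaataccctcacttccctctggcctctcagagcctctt
KEAP1 held TGACACGGC at -54 to -46 and TGACTAAGC on the opposite strand at -31 to -23. The first TXNRD1 window held TGACTTCGC at -99 to -91 and TGACGGAGC on the opposite strand across the start, at -8 to 1, and the second held TGACAAAGC on the opposite strand at -102 to -94. OSGIN1 held TGACTCA at -97 to -91. The matches are descriptions of these windows and no binding was measured.

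The libraries held about 28800000 to 36400000 fragments in lentivirus-NC and 28900000 to 34700000 in lentivirus-circCSPP1, as read from the steps between low FPKM values. All 6 epithelial markers had a mean of at least 1 FPKM, among them KRT8 with 379.88 to 1137.92 FPKM per library. Of 5 leukocyte markers, 2 had a mean of at least 1 FPKM: CD68, a lysosomal protein of macrophages, had 35.83 to 50.35 FPKM and CD14 0.8 to 2.42. CD3E was at 0 FPKM in all 6 libraries, PTPRC reached at most 0.08, and the list summed to 46.31 to 52.12 FPKM in lentivirus-NC and 36.73 to 51.79 in lentivirus-circCSPP1. The luminal prostate markers KLK2 and KLK3 were also at 0 FPKM in all 6.

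All 9 genes had higher FPKM in every lentivirus-circCSPP1 library than in any lentivirus-NC library, an arrangement found for 16% of the 12322 tested genes. At an adjusted p under 0.05 (limma on log2(FPKM + 1), Benjamini-Hochberg over all tested genes), 7 of the 9 rose, against 4.69% of all tested genes and 5.94% of the tested genes that averaged 10 FPKM or more. None fell, against 6.66% of all tested genes. The median log2 fold change of the 9 was 0.85, compared with -0.028 for all tested genes. The 9 genes were chosen with earlier results of these data known, so their comparison with all tested genes is a description only. The genes past the threshold were OSGIN1, NFE2L2, MAFG, SRXN1, NQO1, HMOX1 and TXNRD1, and those not past it were KEAP1 and TXN. With 3 libraries against 3, the exact two-sided permutation test gave each gene 0.10, the smallest p it allows.

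**Figure D1:**
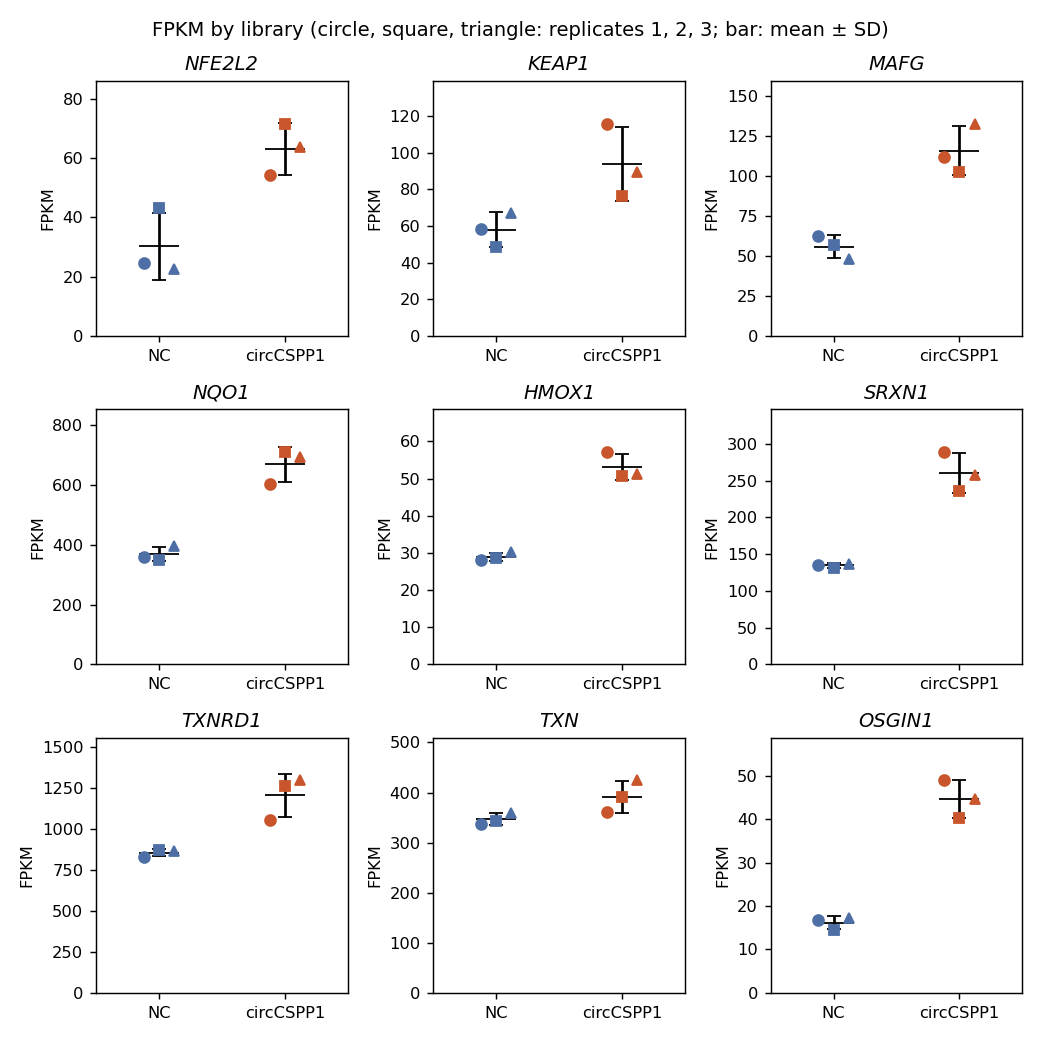
FPKM (vertical axis, from 0) of each of the 9 genes in the 3 lentivirus-NC (blue) and 3 lentivirus-circCSPP1 (orange) libraries; circle, square and triangle are replicates 1, 2 and 3, and bars give the mean and SD. No panel shows overlap between the groups, and the narrowest gap is that of TXN, 0.73 FPKM.

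NFE2L2, which encodes NRF2 itself (chromosome 2, 177227595 to 177392697, minus strand, GRCh38), had 24.73 FPKM in lentivirus-NC replicate 1, 43.33 in replicate 2 and 22.50 in replicate 3, and in the same order 54.16, 71.67 and 63.86 FPKM in lentivirus-circCSPP1. Replicate 2 was the highest library of each group, and the control replicate 2 stood well above the other controls. The mean went from 30.2 ± 11.4 to 63.2 ± 8.77 FPKM (SD, n = 3), and the log2 fold change was 1.09 (SE 0.24, 95% interval 0.54 to 1.65) with a limma adjusted p of 0.0285. The coefficient of variation among the controls, 37.9%, was above that of 98.7% of genes averaging 10 FPKM or more. A level more than 1.5 times that of both other controls was found in control replicate 2 for 29 of 7665 such genes. Without control replicate 1 or 3 the adjusted p was 0.112 or 0.0993, and without lentivirus-circCSPP1 replicate 2 or 3 it was 0.0649 or 0.0937, so the call rests on having all of these libraries.

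KEAP1, the inhibitor (chromosome 19, 10486120 to 10503741, minus strand), had 58.58, 48.33 and 67.40 FPKM in lentivirus-NC and 116, 76.25 and 89.61 FPKM in lentivirus-circCSPP1. The groups did not overlap, but replicate 1 of lentivirus-circCSPP1 stood apart from the other libraries of its group. The means were 58.1 ± 9.54 and 94.0 ± 20.2 FPKM (SD, n = 3), the log2 fold change was 0.68 (SE 0.18, 95% interval 0.26 to 1.09), and the limma adjusted p was 0.0509, just outside the threshold. Without lentivirus-circCSPP1 replicate 1 or 2 it passed, with limma adjusted p-values of 0.0444 and 0.0360, and after correction for GC content and transcript length it was 0.0126.

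MAFG, a small MAF protein that pairs with NRF2 on DNA (chromosome 17, 81918270 to 81927714, minus strand), had 62.32, 56.81 and 48.39 FPKM in lentivirus-NC and 112.05, 102.63 and 132.78 FPKM in lentivirus-circCSPP1. The lowest lentivirus-circCSPP1 library was far above the highest control. MAFG rose from 55.8 ± 7.02 to 115.8 ± 15.4 FPKM (SD, n = 3), and the log2 fold change was 1.04 (SE 0.13) with a limma adjusted p of 0.00528. Reads in bases shared with a neighbouring gene could be assigned to either gene: MAFG shares 105 exonic bases with SIRT7 on the same strand (27.94 to 39.41 FPKM) and 224 with AC145207.8 on the opposite strand. NFE2L2 shares 1054 with AC019080.1 on the same strand, and on the opposite strand 190 with AC079305.1 and 54 with AGPS.

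NQO1, a quinone reductase and a standard readout of NRF2 activity (chromosome 16, 69706996 to 69726951, minus strand), had 359.63, 349.95 and 396.91 FPKM in lentivirus-NC and 602.04, 709.10 and 691.96 FPKM in lentivirus-circCSPP1. The groups were far apart, and control replicate 2, the highest control for NFE2L2, was the lowest control for NQO1. NQO1 rose from 369 ± 24.8 to 668 ± 57.5 FPKM (SD, n = 3), for a log2 fold change of 0.85 (SE 0.089, limma adjusted p = 0.00317). It shares 575 exonic bases with AC092115.2 on the opposite strand, and the strand setting of the counting is not given in the sources used here.

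HMOX1, the inducible haem oxygenase (chromosome 22, 35380361 to 35394214, plus strand), had 28.01, 28.68 and 30.17 FPKM in lentivirus-NC and 57.17, 50.82 and 51.37 FPKM in lentivirus-circCSPP1. The libraries of each group lay close together. HMOX1 rose from 28.95 ± 1.11 to 53.1 ± 3.52 FPKM (SD, n = 3), with a log2 fold change of 0.85 (SE 0.089) and a limma adjusted p of 0.00317.

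SRXN1, sulfiredoxin, which repairs over-oxidized peroxiredoxins (chromosome 20, 646615 to 653370, minus strand), had 135.90, 131.40 and 137.19 FPKM in lentivirus-NC and 288.90, 235.70 and 257.03 FPKM in lentivirus-circCSPP1. The controls were nearly level and every lentivirus-circCSPP1 library was far above them. SRXN1 rose from 135 ± 3.04 to 261 ± 26.8 FPKM (SD, n = 3), and the log2 fold change was 0.94 (SE 0.090) with a limma adjusted p of 0.00241. It shares 2292 of its 2698 exonic bases with the same-strand gene AL121758.1, which had 0.24 to 0.8 FPKM.

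TXNRD1, the cytosolic thioredoxin reductase, a selenoprotein (chromosome 12, 104215779 to 104350305, plus strand), had 829.44, 871.17 and 862.96 FPKM in lentivirus-NC and 1052.64, 1260.70 and 1293.45 FPKM in lentivirus-circCSPP1. Replicate 1 was the lowest library in both groups. TXNRD1 rose from 854.5 ± 22.1 to 1202.3 ± 131 FPKM (SD, n = 3), and the log2 fold change was 0.49 (SE 0.090, 95% interval 0.28 to 0.70) with a limma adjusted p of 0.0170. The call was lost without any 1 of the controls (adjusted p = 0.0846, 0.0798 and 0.0724 without replicates 1, 2 and 3) and without lentivirus-circCSPP1 replicate 3 (0.0708).

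TXN, thioredoxin, the substrate of TXNRD1 (chromosome 9, 110243811 to 110256640, minus strand), had 337.40, 342.16 and 359.83 FPKM in lentivirus-NC and 360.56, 390.32 and 424.07 FPKM in lentivirus-circCSPP1. The groups were separated by only 0.73 FPKM, between the highest control and lentivirus-circCSPP1 replicate 1. The means were 346 ± 11.8 and 392 ± 31.8 FPKM (SD, n = 3), and the log2 fold change of 0.17 (95% interval -0.014 to 0.36) did not pass (limma adjusted p = 0.207). Without lentivirus-circCSPP1 replicate 1 it was 0.23 and passed (adjusted p = 0.0266). TXN has 7 named pseudogenes, and how reads matching several of these copies were assigned is not given in the sources used here.

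OSGIN1, an oxidative stress-induced growth inhibitor (chromosome 16, 83948282 to 83966332, plus strand), had 16.68, 14.54 and 17.34 FPKM in lentivirus-NC and 48.90, 40.32 and 44.67 FPKM in lentivirus-circCSPP1. The groups were widely separated. It shares 481 exonic bases with AC009119.2 on the same strand, which had at most 0.09 FPKM. OSGIN1 rose from 16.2 ± 1.46 to 44.6 ± 4.29 FPKM (SD, n = 3), 2.76-fold on the means, with a log2 fold change of 1.41 (SE 0.11, 95% interval 1.14 to 1.67) and a limma adjusted p of 0.00146. Its log2 fold change ranked 15 of 12322 tested genes when ordered from the highest, ahead of NFE2L2 (45), MAFG (61), SRXN1 (94), NQO1 (122), HMOX1 (124), KEAP1 (243), TXNRD1 (567) and TXN (2818).

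**Figure D2:**
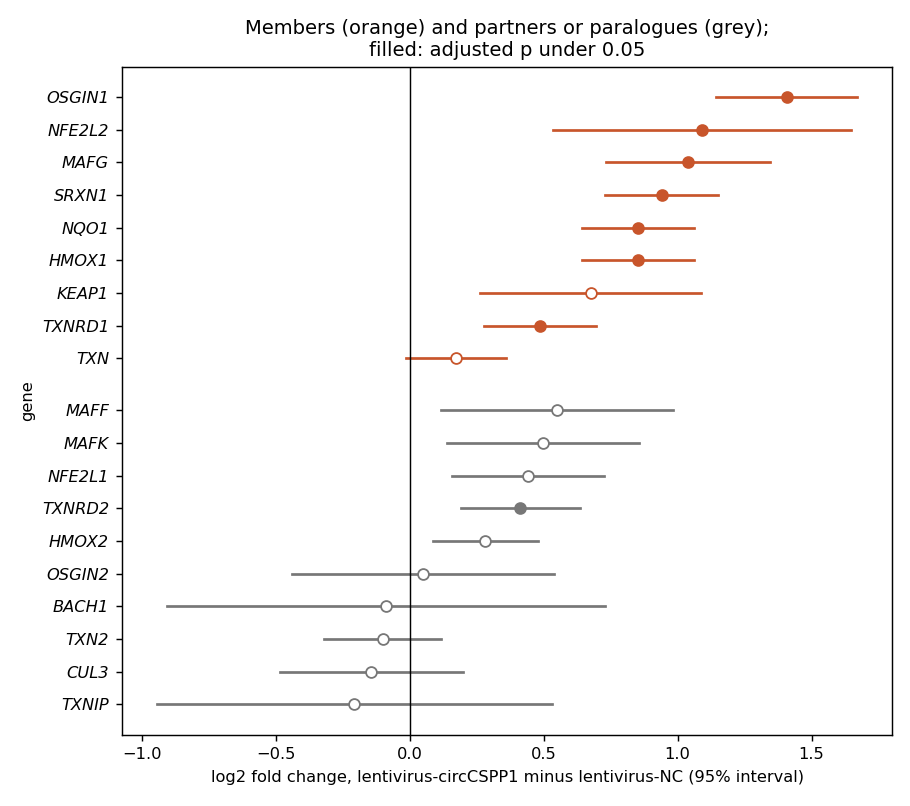
log2 fold change on the log2(FPKM + 1) scale, lentivirus-circCSPP1 minus lentivirus-NC (horizontal axis), with 95% intervals, for the 9 genes (orange) and 10 partners or paralogues (grey); filled points had a limma adjusted p under 0.05. OSGIN1 lies highest at 1.41, the interval of TXN reaches below 0, and TXNRD2 is the only filled grey point.

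The genes differed widely in level. On the FPKM scale, which divides by transcript length, the control means ran from 854.5 for TXNRD1 through 369 for NQO1, 346 for TXN and 135 for SRXN1 to 58.1 for KEAP1, 55.8 for MAFG, 30.2 for NFE2L2, 28.95 for HMOX1 and 16.2 for OSGIN1. Among neighbours in this order, NQO1 and TXN, KEAP1 and MAFG, and NFE2L2 and HMOX1 overlapped between control libraries. In lentivirus-circCSPP1, NQO1 and TXN no longer overlapped, whereas MAFG and KEAP1, and NFE2L2 and HMOX1, still did.

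The balance of NFE2L2 to its inhibitor did not separate the groups. The log2 ratio of NFE2L2 to KEAP1 was taken on FPKM + 1. By replicate it was -1.21, -0.15 and -1.54 in lentivirus-NC and -1.09, -0.088 and -0.48 in lentivirus-circCSPP1. The groups overlapped, and the difference of 0.42 between the means (-0.97 ± 0.72 and -0.55 ± 0.50, SD, n = 3) had an exact two-sided permutation p of 0.4. Single libraries moved this difference: it was 0.82 without lentivirus-NC replicate 2, 0.13 without lentivirus-NC replicate 3, 0.68 without lentivirus-circCSPP1 replicate 1 and 0.19 without lentivirus-circCSPP1 replicate 2, with exact permutation p-values from 0.2 to 0.8. In both groups the order of the libraries for NFE2L2 was the reverse of that for KEAP1. This describes 3 libraries a group, and its cause was not tested.

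The log2 ratio of TXNRD1 to its substrate TXN, also on FPKM + 1, was 1.30, 1.35 and 1.26 in lentivirus-NC and 1.54, 1.69 and 1.61 in lentivirus-circCSPP1. These groups did not overlap: the means were 1.30 ± 0.043 and 1.61 ± 0.073 (SD, n = 3), differing by 0.31, with an exact two-sided permutation p of 0.1, the smallest that 3 against 3 can give.

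**Figure D3:**
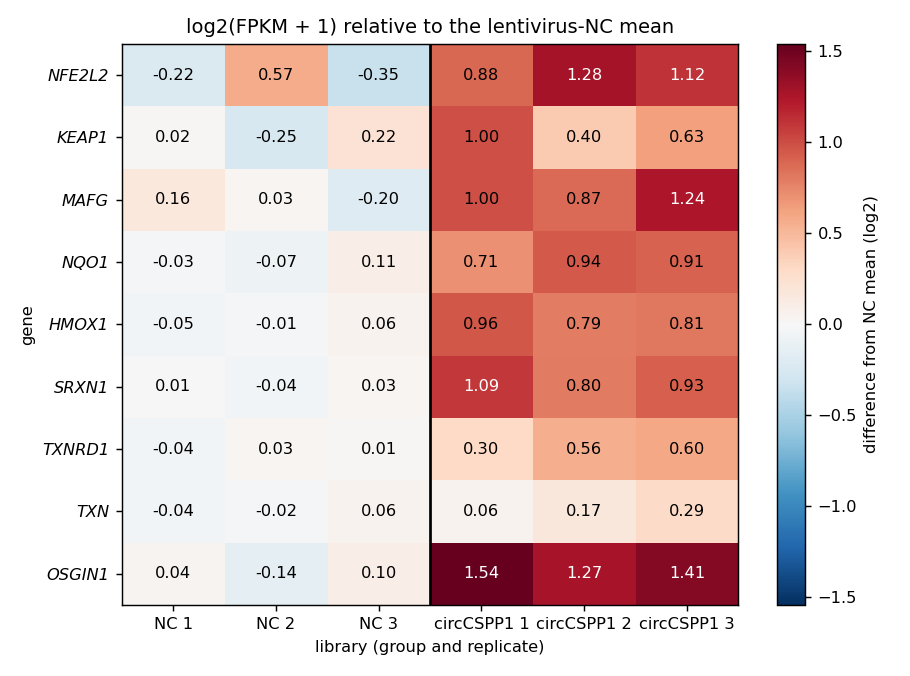
Difference of log2(FPKM + 1) from the lentivirus-NC mean for the 9 genes (rows) in each library (columns), printed in each cell and coloured from blue (lower) to red (higher). All lentivirus-circCSPP1 cells are above 0, from 0.06 for TXN to 1.54 for OSGIN1, both in replicate 1.

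The lentivirus-circCSPP1 libraries differed among themselves with transcript GC content. Across 7663 genes averaging 10 FPKM or more, the deviation from the group mean correlated with GC content in replicate 1 (Spearman rho 0.807) and inversely in replicates 2 (-0.753) and 3 (-0.555), while the controls lay between -0.08 and 0.114. These values are across genes of libraries of 1 group and are a description. A gene's deviations cancel within its group, so the values of the replicates are not independent and do not show which library departed. Among the 5 members with a transcript GC content over 50% (53.6 to 63.4%), 4 (KEAP1, HMOX1, SRXN1 and OSGIN1) were above their group mean in replicate 1, the exception being MAFG, and all 4 under 50% (NFE2L2, NQO1, TXNRD1 and TXN) were below it. After loess correction of each library for GC content and transcript length, the log2 fold changes of the members were between 0.23 for TXN and 1.37 for OSGIN1. With this correction 8 of the 9 passed, with TXN at a limma adjusted p of 0.0760. Of all tested genes, 12.2% then rose and 16.4% fell, against 4.69% and 6.66% without the correction.

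**Figure D4:**
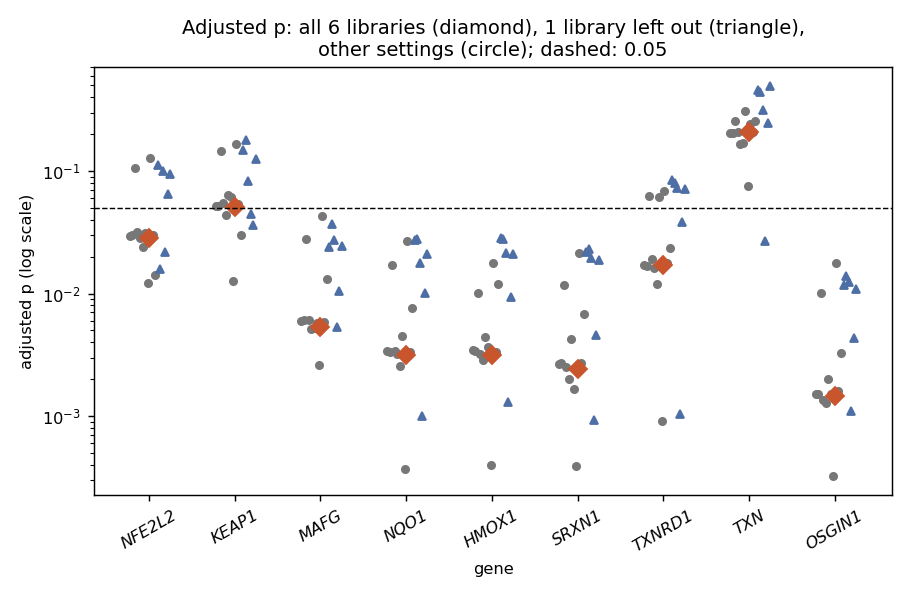
limma adjusted p (vertical axis, log scale) of the 9 genes with all 6 libraries (diamonds), with 1 library left out (triangles) and under other settings (circles); the dashed line marks 0.05. MAFG, NQO1, HMOX1, SRXN1 and OSGIN1 stay below the line in every setting, whereas NFE2L2, KEAP1, TXNRD1 and TXN have points on both sides.

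Among 10 partners and paralogues of the members, 1 rose (4.69% of all tested genes did), none fell (6.66%), and the median log2 fold change was 0.17, against -0.028 for all tested genes. TXNRD2, the mitochondrial thioredoxin reductase, rose from 68.6 ± 2.74 to 91.9 ± 9.38 FPKM (SD, n = 3; log2 fold change 0.41, limma adjusted p = 0.0338). The other small MAF genes, MAFF and MAFK, had log2 fold changes of 0.55 and 0.50 with adjusted p-values of 0.0997 and 0.0794, and the NRF2 paralogue NFE2L1 had 0.44 (0.0585). HMOX2, the constitutive haem oxygenase, had 0.28 (adjusted p = 0.0711). These 5 of the 10 genes were higher in every lentivirus-circCSPP1 library than in any control, an arrangement that 16% of all tested genes had. CUL3, the ligase scaffold that KEAP1 recruits, had a log2 fold change of -0.14, BACH1, a repressor that competes at AREs, -0.089, TXN2, the mitochondrial thioredoxin, -0.10, TXNIP, a thioredoxin inhibitor, -0.21, and OSGIN2 0.051, with adjusted p-values from 0.533 to 0.904 and overlapping groups. BACH1 had 21.44, 57.69 and 53.77 FPKM in lentivirus-circCSPP1, and without replicate 1 of that group its log2 fold change was 0.36 (limma adjusted p = 0.0946). In that setting TXNRD2, MAFF, MAFK, NFE2L1, HMOX2 and OSGIN2 passed as higher (limma adjusted p from 0.0046 to 0.0379). CUL3, BACH1, TXN2 and TXNIP did not pass. Of all genes tested in that setting, 13.1% rose and 15.4% fell.

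Of 98 other genes in 4 pathway lists, 91 were tested, 11 rose and 6 fell, with a median log2 fold change of 0.032; of all tested genes, 4.69% rose and 6.66% fell, with a median of -0.028. Of 18 tested regulators of NRF2, 2 rose and none fell. SQSTM1 (p62), an autophagy receptor that binds KEAP1, rose from 541 ± 15.8 to 1642.5 ± 50.5 FPKM (SD, n = 3; log2 fold change 1.60, limma adjusted p = 8.49e-05), and CREBBP, a coactivator, rose by 0.45 on the log2 scale (adjusted p = 0.0236). The median of this list was 0.047.

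Of 39 tested other NRF2 targets, 8 rose (4.69% of all tested genes did), 4 fell (6.66%) and 27 did not pass. Their median log2 fold change was 0.092. Those that rose included CYP4F11, a cytochrome P450 (6.25 ± 0.14 to 14.2 ± 1.60 FPKM, log2 fold change 1.07, limma adjusted p = 0.00333), SLC7A11, the cystine transporter (8.61 ± 0.62 to 17.2 ± 5.56 FPKM, 0.87, 0.0460), and TRIM16L (45.1 ± 3.57 to 74.0 ± 4.03 FPKM, 0.70, 0.00588), all SD with n = 3. The other 5, named after their values were seen, were GCLC, the catalytic subunit of glutathione synthesis (0.63), FTH1 and FTL, the ferritin chains (0.58 and 0.46), GSR, glutathione reductase (0.45), and EPHX1, an epoxide hydrolase (0.32). Those that fell were GSTA4, a glutathione transferase (14.1 ± 1.15 to 6.60 ± 1.45 FPKM, log2 fold change -1.002, adjusted p = 0.0111), AKR1C3, an aldo-keto reductase (6.98 ± 0.55 to 4.03 ± 0.48 FPKM, -0.67, 0.0162), BLVRA, biliverdin reductase (-0.51), and GSTM3, a glutathione transferase (-0.44), the last 2 also named after their values were seen.

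Of 20 tested thioredoxin system genes, TXNRD2 rose and MSRB1, a methionine sulfoxide reductase, fell (log2 fold change -0.42, limma adjusted p = 0.0201), and the median was -0.14. Of 14 tested other antioxidant genes, none rose and CAT, catalase, fell from 24.4 ± 1.39 to 16.3 ± 1.39 FPKM (SD, n = 3; log2 fold change -0.55, limma adjusted p = 0.0175), with a median of -0.052. In the main fit, 4.69% of all tested genes rose and 6.66% fell. Without lentivirus-circCSPP1 replicate 1, the counts that rose and fell were 7 and 0 for the regulators, 11 and 7 for the other targets, 3 and 4 for the thioredoxin system and 2 and 3 for the other antioxidant genes, while of all genes tested in that setting 13.1% rose and 15.4% fell.

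**Figure D5:**
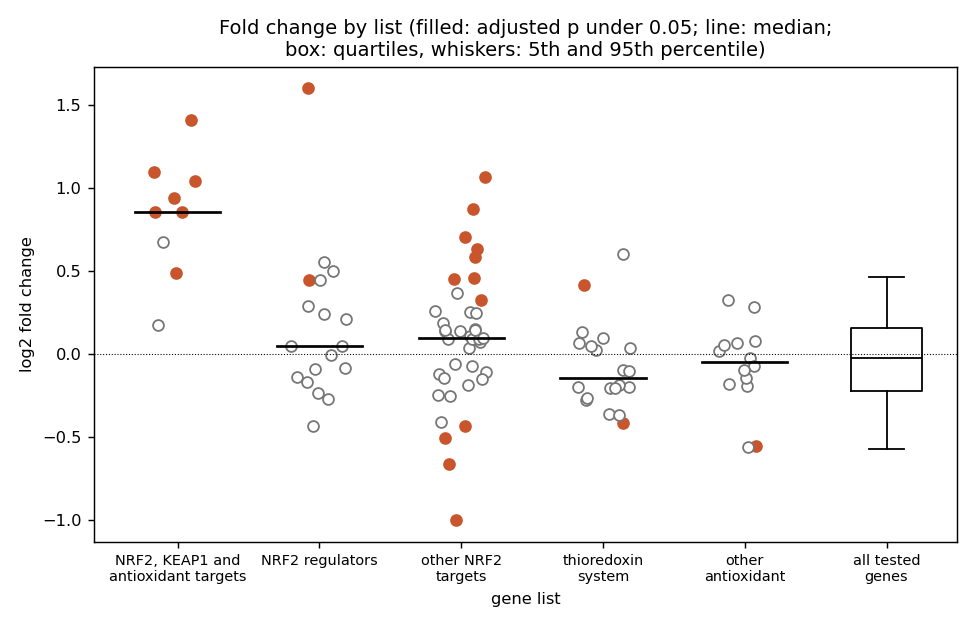
log2 fold change (vertical axis) of each tested gene in the 9-gene group and the 4 lists; filled points had a limma adjusted p under 0.05, thick lines are medians, and the box on the right gives the quartiles of all 12322 tested genes with whiskers at the 5th and 95th percentile. The median is 0.85 for the 9 genes and between -0.14 and 0.092 for the 4 lists.

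OSGIN1, the member with the smallest adjusted p, was set against all other tested genes by Pearson correlation of log2(FPKM + 1) over the 6 libraries. The closest were DAP (r = 0.998), MYEOV (0.997), KIF26B (0.997), FTL (0.996) and UTP4 (0.996). In the same order their log2 fold changes were 0.24, 0.87, 0.72, 0.46 and 0.28, so a high r did not mean a change as large as that of OSGIN1. DAP did not pass (limma adjusted p = 0.0557), and KIF26B was low, with means of 0.78 FPKM in lentivirus-NC and 1.94 in lentivirus-circCSPP1. The correlations are descriptions over libraries that fall into 2 groups, and 389 tested genes had an r of at least 0.95.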

How the data were processed

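Poly(A) RNA of 6 DU145 libraries was sequenced as paired ends. The authors deposited 1 table of FPKM values per gene and library, without counts. The submitters' processing notes name hg38, and the aligner, the program that computed FPKM and its strand setting are not given in the sources used here. No column was left unused. Depth was estimated from the size of the steps between low FPKM values, in genes having 1 short transcript, and it limits precision only through counting error.

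Values were transformed to log2(FPKM + 1), genes with a mean under 1 FPKM were left out (7405 of 19727), and the groups were compared with limma 3.58.1 in R 4.3.3 (moderated variance with a mean trend, two-sided, no covariate, Benjamini-Hochberg over 12322 genes). Fold changes on this scale understate changes of low genes. The script was tested on simulated data. Ratios were compared by exact permutation. Loci and GC content came from GENCODE 29, promoters from RefSeq.

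The members, lists and tests were chosen with earlier results of these data known, and the lists were written from general knowledge. Named were the 9 members, all partners and paralogues, up to 5 called genes with the largest change per list, and the 5 genes most like the member with the smallest adjusted p. Alternatives were other pseudocounts, filters, scalings, variance models, a GC and length correction, a replicate block and leaving out each library. Same-numbered libraries correlated only weakly in their deviations (0.073, 0.007 and 0.057), although 4 of 6 libraries correlated best with their own number. The numbers were not used as pairs in the main fit. Some luminal prostate and leukocyte markers are not reported here.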

Additional observations from a re-analysis of the deposited data

How the results depend on the processing

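No member changed direction under any of the 17 alternatives. MAFG, NQO1, HMOX1, SRXN1 and OSGIN1 passed in all 17, NFE2L2 in 11, TXNRD1 in 10, KEAP1 in 5 and TXN in 1. Beside the left-out libraries, NFE2L2 lost its call without a filter (adjusted p = 0.106) and without moderation (0.128), and TXNRD1 without a filter (0.0626), without moderation (0.0685) and with quantile normalization (0.0608), while KEAP1 passed after rescaling to TPM (0.0438). The number of members that rose was 7, and it lay between 5 and 9 over the alternatives: 9 without lentivirus-circCSPP1 replicate 1, 6 without lentivirus-NC replicate 2 or with quantile normalization, and 5 without lentivirus-NC replicate 1, lentivirus-NC replicate 3 or lentivirus-circCSPP1 replicate 3, without a filter on low values or without moderation of the variance. None fell in any. Over all tested genes, 578 rose and 821 fell (4.69% and 6.66%). Without lentivirus-circCSPP1 replicate 1 the counts were 1620 and 1894 (13.1% and 15.4%), and without its replicate 3 they were 196 and 264 (1.59% and 2.14%). Leaving out lentivirus-NC replicate 1 gave 143 and 150 (1.16% and 1.22%). For replicate 2 of lentivirus-NC it was 149 and 160 (1.21% and 1.3%), and for replicate 3 165 and 239 (1.34% and 1.94%). The GC and length correction gave 1505 and 2024 (12.2% and 16.4%), and quantile normalization 667 and 732 (5.41% and 5.94%). Without a filter 479 and 682 of 19727 genes passed (2.43% and 3.46%), and without moderation 381 and 453 (3.09% and 3.68%). With the replicate block 364 rose and 559 fell (2.95% and 4.54%). Same-numbered libraries correlated at 0.073, 0.007 and 0.057 in their deviations, and 4 of 6 libraries correlated best with their own number. With the replicate block, 8 members rose, KEAP1 among them (log2 fold change 0.68, limma adjusted p = 0.0299). Leaving out lentivirus-circCSPP1 replicate 1 and correcting for GC content and length were chosen for the lists after seeing the data, and with the correction 4 regulators rose and 2 fell, and 11 other targets rose and 8 fell, against 12.2% and 16.4% of all tested genes. The cause of these shifts was not tested. Only 3 libraries per group, of unstated independence, limit every p-value here.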
